A study of Homo sapiens with 4 samples.

Results

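Cytochrome P450 and glutathione transferase genes were examined in 2 lines of HER2-amplified breast cancer cells and in a lapatinib-resistant clone of each. A gene belonged to the group when a probe's RefSeq accession led to a symbol beginning with CYP, a number and a letter, or with GSTA, GSTK, GSTM, GSTO, GSTP, GSTT, GSTZ or MGST. This gave 74 of the 16422 genes named on the array, of which 52 were P450 genes and 22 were glutathione transferase genes, with 103 probes in all. The 3 members CYP4Z2P, GSTM2P1 and GSTT2 are annotated as non-coding, and the rule itself uses names and no measured value.

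Parental SkBr3 and BT474 cells, labeled as vehicle-treated, were compared with SkBr3/Lap and BT474/Lap, clones made resistant by exposing the cells to rising lapatinib, an inhibitor of the receptor kinases EGFR and HER2, up to 1 μM. All cells were grown in the same base medium. Total RNA was labeled with Cy3 and hybridized to 1 Agilent array per group, 4 arrays in all. For its protein blots the study kept both clones in 1 μM lapatinib. Ongoing drug exposure and resistance cannot be told apart here. Each resistant line is a single clone, which the labels number 3 for SkBr3 and 6 for BT474, whereas the study's text numbers them the other way round. With 1 array per group there is no replicate within a cell line, so no test could be made there and a change of at least 2-fold is a description of these arrays.

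P450 enzymes are heme proteins that insert oxygen into steroids, vitamins, fatty acids, drugs and pollutants, with electrons passed on by reductases and ferredoxins. Glutathione transferases join the products, and other reactive molecules, to glutathione for export, and microsomal members of the family also reduce lipid peroxides. Lapatinib is itself broken down largely by CYP3A4 and CYP3A5 in the liver, and several enzymes of both families act on hormones or lipids in breast tissue.

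Signals are given as a percentage of the array's 75th percentile over all non-control probes, which was 1115, 2074, 1158 and 1681 intensity units in SkBr3, SkBr3/Lap, BT474 and BT474/Lap. Wherever 4 percentages are given, they follow this order. The share of probes well above background was 66.6%, 73.7%, 68.3% and 74.0%. The lowest signal so marked was 1.44%, 0.641%, 1.38% and 0.871%. Both resistant arrays therefore detected dimmer signals than those of their parental cells. No spot was saturated, and the median SD of probes spotted 10 times was between 0.075 and 0.0809 on the log2 scale within an array. The SkBr3/Lap array lay alone on a second slide, so that slide and resistance cannot be told apart in SkBr3, whereas both BT474 arrays shared the first slide. The 6 markers of luminal HER2-amplified cells, among them ERBB2 at 21400%, 5720%, 22100% and 14100%, were well above background on all 4 arrays. In SkBr3/Lap, ERBB2 was 3.74-fold and GRB7 2.29-fold lower, and no other of these markers passed 2-fold in either clone. In RNA from whole cultures, fewer expressing cells and less RNA per cell cannot be told apart.

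The genes past 2-fold in the same direction in both clones were CYP1A1, which was higher in both, and GSTP1 and GSTO2, which were lower in both. Since these 3 passed 2-fold the same way in both clones, the 250 bases before their RefSeq starts are shown from the GRCh38.p14 assembly. Capitals mark the letters GCGTG, the core bound by the aryl hydrocarbon receptor AHR, or TGACNNNGC, the core of antioxidant response elements, on either strand.
CYP1A1 (chr15:74725529-74725778, minus strand): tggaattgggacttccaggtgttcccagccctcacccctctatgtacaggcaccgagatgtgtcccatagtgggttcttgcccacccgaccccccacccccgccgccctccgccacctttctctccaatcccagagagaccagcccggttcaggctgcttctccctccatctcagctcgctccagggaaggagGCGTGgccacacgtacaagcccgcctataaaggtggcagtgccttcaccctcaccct
GSTP1 (chr11:67583562-67583811, plus strand): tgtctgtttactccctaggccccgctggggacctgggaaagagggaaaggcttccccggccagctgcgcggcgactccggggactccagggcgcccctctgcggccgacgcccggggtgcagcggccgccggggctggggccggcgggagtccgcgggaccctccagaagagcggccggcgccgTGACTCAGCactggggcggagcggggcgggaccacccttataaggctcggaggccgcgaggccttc
GSTO2 (chr10:104268934-104269183, plus strand): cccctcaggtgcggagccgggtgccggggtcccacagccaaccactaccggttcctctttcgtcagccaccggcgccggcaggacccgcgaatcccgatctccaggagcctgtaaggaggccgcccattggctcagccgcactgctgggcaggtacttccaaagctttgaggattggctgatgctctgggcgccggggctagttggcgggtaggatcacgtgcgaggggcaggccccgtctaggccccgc

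The CYP1A1 window held 1 GCGTG match, from base -57 to base -53 before the start, and the GSTP1 window held 1 TGACNNNGC match, from base -66 to base -58. Neither set of letters was found in the GSTO2 window. A window here is 300 bases, with 250 before and 50 after the start, and 54 of the 74 members had one. GCGTG was present in 36.3% of all 27305 RefSeq windows and in 15 of the 54 member windows (27.8%), the longer TNGCGTG in 5.51% of all and in 2 members (3.7%), and TGACNNNGC in 13.6% of all and in 10 members (18.5%). TNGCGTG contains GCGTG, so its matches are counted under both. GSTP1 and GSTO2 windows held 36 and 24 CpG sites, against a median of 14 over all windows and 7 over the members, and the CYP1A1 window held 10. These matches are letters in the reference sequence, and no binding was measured.

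In total, 41 members (55.4%) were well above background on all 4 arrays, against 11491 of all named genes (70.0%), and 8 members (10.8%) on none, against 2098 of all (12.8%). The 8 were the steroid enzyme CYP11B2, the sterol enzymes CYP46A1 and CYP8B1, the drug-metabolizing CYP2C8, CYP2C19, CYP3A4 and CYP3A5, and GSTT2. The probe of CYP3A5 read 0.292%, 0.457%, 0.282% and 0.435%. The principal lapatinib-metabolizing enzymes were therefore not detected above background in either parental line or in either clone by these probes. A member had a usable comparison in a cell line when it was well above background on at least 1 of the 2 arrays. Where the other array was too dim to be so marked, the fold change is a limit, taken against the gene's own dim signal or the lowest signal marked on that array, whichever was higher.

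In SkBr3/Lap, 15 of 60 members (25.0%) were at least 2-fold higher than in SkBr3, where 12.7% of all named genes were higher, and 14 of 60 (23.3%) were at least 2-fold lower, where 13.5% of all were. In BT474/Lap, 16 of 58 members (27.6%) were at least 2-fold higher, where 8.56% of all genes were, and 3 of 58 (5.17%) were lower, where 5.89% were. With arrays scaled by their median instead, the BT474 split over all genes turned from 1155 higher and 794 lower to 912 higher and 1223 lower, and that of the members was 12 higher and 4 lower. With limits counted, the members' shares lay above those of all genes in both directions in SkBr3/Lap and upward in BT474/Lap. Downward in BT474/Lap they were near. A gene called by a limit entered its comparison only through the array where it was high, so these shares depend in part on that filter. Among the higher and lower calls in SkBr3, 8 and 2 were limits, and in BT474 2 of the higher calls were. Over all named genes, 411 of 1720 higher and 238 of 1836 lower calls in SkBr3 were limits. In BT474, 251 of 1155 higher and 132 of 794 lower calls were.

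**Figure D1:**
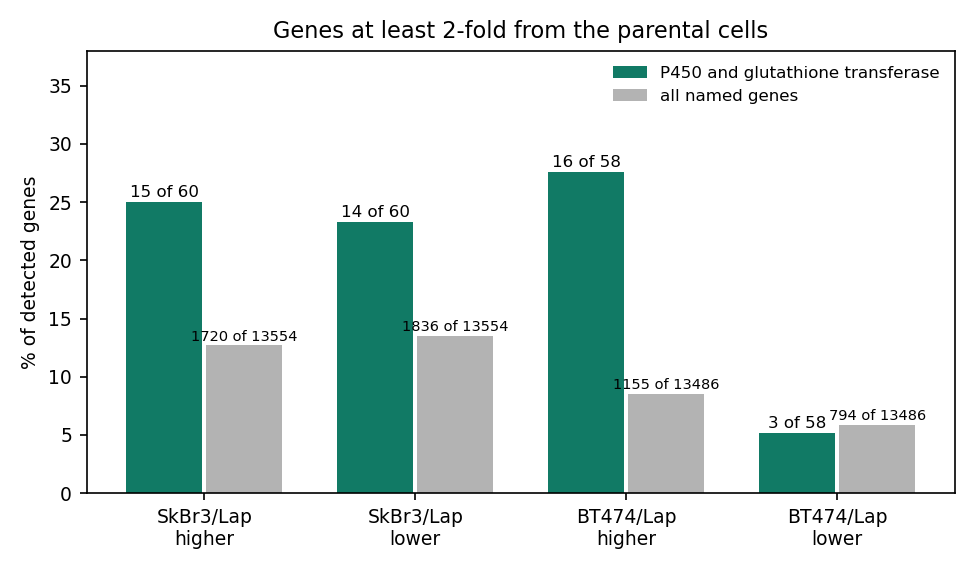
Share of detected genes at least 2-fold higher or lower in each resistant clone than in its parental cells, in percent, with the counts above the bars. Limits are included. Green bars stand for P450 and glutathione transferase genes and gray bars for all named genes, each bar from 1 array per group; the green bars reach 25.0%, 23.3%, 27.6% and 5.17%.

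Of the 52 members with a usable comparison in both lines, 1 was past 2-fold upward in both clones (1.92%, against 2.41% of all genes), 2 were lower in both (3.85%, against 1.3% of all) and 4 moved past 2-fold in opposite directions (7.69%, against 2.57% of all). Over the 41 members measured on all 4 arrays, changes in SkBr3/Lap and in BT474/Lap correlated with a Pearson r of 0.10 and a Spearman rho of 0.01 across genes, which describes these 4 arrays and carries no test. The corresponding values over 11491 genes were 0.04 and -0.04. Of these 41 members, 9 were above 0 in both clones, 13 below 0 in both, and 19 differed in sign.

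CYP1A1, which oxidizes polycyclic hydrocarbons and is the classical target of AHR, had signals of 15.6%, 48.7%, 336% and 1540%. Against the parental cells, the rise was 3.13-fold in SkBr3/Lap and 4.59-fold in BT474/Lap, and both BT474 arrays stood above both SkBr3 arrays. GSTP1, the pi-class transferase, had signals of 51.5%, 1.62%, 15.3% and 7.19%, a fall of 31.8-fold in SkBr3/Lap and of 2.12-fold in BT474/Lap. GSTO2, an omega-class enzyme that reduces dehydroascorbate, had signals of 71.3%, 11.0%, 31.3% and 10.1%, a fall of 6.46-fold and of 3.11-fold. The BT474 fall of GSTP1 lay close to the threshold, with a log2 fold change of -1.09 that became -0.98 when only probes above background on all arrays set the scale and -0.92 after normexp background correction and quantile normalization.

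The only test the design allowed was limma across both lines, 2 resistant against 2 parental arrays with cell line as a block, which leaves 1 residual degree of freedom. No probe of the group, 0 of 89, passed an adjusted p of 0.05, as 0% of all 33084 probes did. At an unadjusted p below 0.05, there were 2 member probes (2.25%) and 1167 of all probes (3.53%). The 2 probes were those of CYP1A1, with a mean log2 fold change of 1.92 (SE 0.463, limma adjusted p = 1), and of GSTO2, with -2.16 (SE 0.522, limma adjusted p = 1). GSTP1 had a mean log2 fold change of -3.04 (SE 1.13, limma adjusted p = 1).

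**Figure D2:**
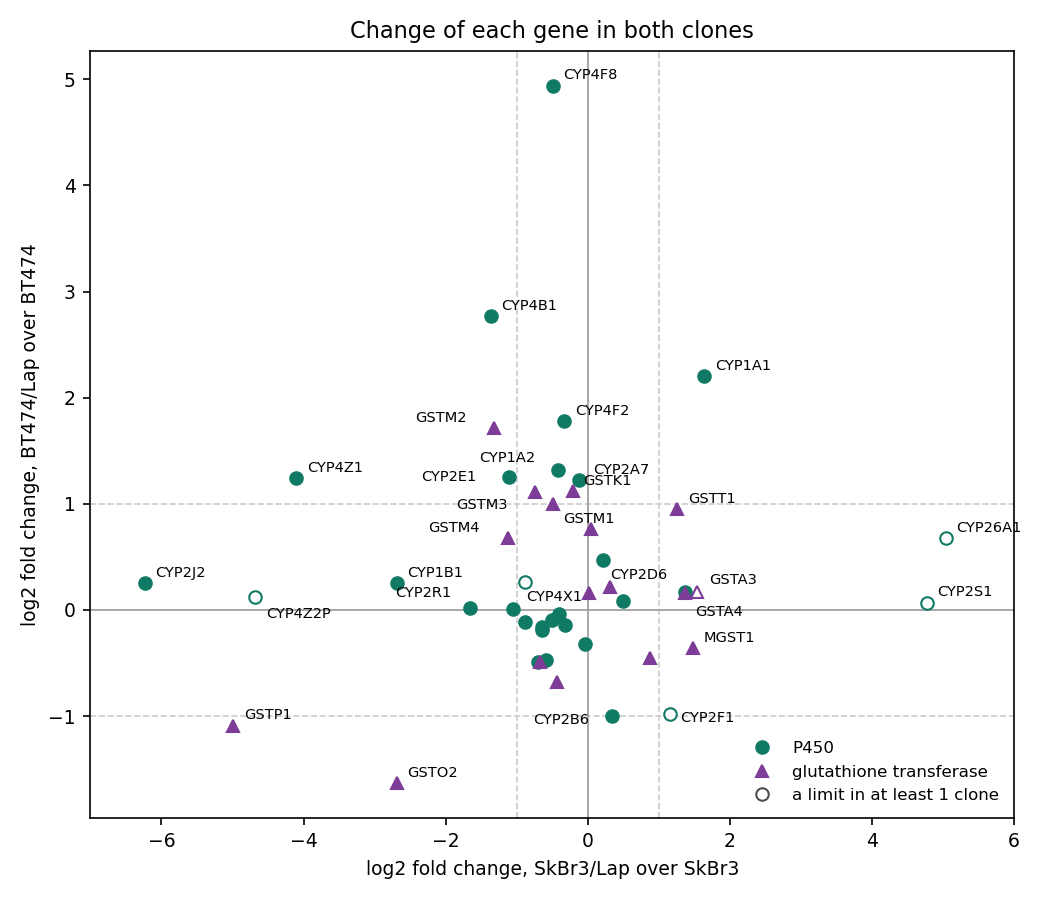
Change of each gene with a value in both cell lines, as the log2 fold change of SkBr3/Lap over SkBr3 (horizontal axis) and of BT474/Lap over BT474 (vertical axis), from 1 array per group. Circles are P450 genes, triangles are glutathione transferase genes, open symbols are limits in at least 1 clone and dashed lines mark 2-fold; CYP1A1 lies alone beyond both dashed lines at the upper right, GSTP1 and GSTO2 in the lower left.

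Of the steroid-making P450 genes, 3 of 5 usable members were at least 2-fold higher in SkBr3/Lap, where 12.7% of all genes were. None of 3 passed 2-fold in BT474/Lap. CYP17A1 and CYP19A1 were usable only through the SkBr3/Lap array, where they were high, and 2 of the class were measured on both SkBr3 arrays. The class share is therefore in part set by the filter. CYP11A1, which cleaves the cholesterol side chain in the first step of steroid synthesis, had signals of 1.69%, 48.8%, 0.963% and 1.37% and was 28.9-fold higher in SkBr3/Lap. CYP17A1, which makes androgen precursors, had 0.606%, 32.4%, 0.431% and 0.869%, at least 22.6-fold higher in SkBr3/Lap. CYP19A1, the aromatase that turns androgens into estrogens, had 0.286%, 58.2%, 0.278% and 0.176%, at least 40.5-fold higher in SkBr3/Lap. Apart from CYP11A1 in SkBr3 and BT474/Lap, whose signals were just above background, these genes were well above background only on the SkBr3/Lap array. The later enzymes of the adrenal pathway did not follow them. CYP11B1, which completes cortisol, stayed between 18.6% and 25.3% with its brightest probe. Its other probe was below background on every array, between 0.247% and 1.31%. CYP21A2, the hydroxylase on the way to cortisol and aldosterone, read 0.953%, 0.801%, 2.66% and 3.39%.

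Among 5 markers of adrenal and gonadal cells, 1, 5, 2 and 4 were above background on the arrays in the same order, and their summed signal was 25.7%, 645%, 7.23% and 8.7%. Nearly all of the SkBr3/Lap sum came from INHA, an inhibin subunit, which read 22.9%, 631%, 2.52% and 4.24%. HSD3B2, the dehydrogenase that follows CYP11A1 in steroid synthesis, was at least 7.23-fold higher in SkBr3/Lap. STAR, which carries cholesterol into mitochondria, and NR5A1, the regulator of steroid-making genes, were near the floor on that array at 1.18% and 0.893%. Of 5 fibroblast markers with a probe, 0, 2, 0 and 0 were above background, with sums of 2.07%, 20.8%, 1.88% and 1.22%. The part of other cell types in the rise was not tested.

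Among the vitamin P450 genes, the retinoic acid hydroxylases CYP26A1 and CYP26B1 rose in SkBr3/Lap by their brightest probes. CYP26A1 had signals of 0.441%, 47.2%, 3.1% and 4.98% and was at least 32.9-fold higher in SkBr3/Lap. CYP26B1 had 1.28%, 85.6%, 0.388% and 0.247% and was at least 59.6-fold higher, although its other probe gave a limit of only 0.16 on the log2 scale. In BT474, CYP26A1 had a log2 fold change of 0.68 and CYP26B1 was below background on both arrays. The retinoic acid receptor genes RARA and RARG were 2.13-fold and 2.95-fold lower in SkBr3/Lap, and RARG was 2.08-fold higher in BT474/Lap.

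CYP2R1, which carries out the first hydroxylation of vitamin D, had signals of 500%, 158%, 627% and 634%, 3.17-fold lower in SkBr3/Lap and level in BT474/Lap. CYP27B1, which makes the active hormone, had 4.93%, 6.93%, 2.4% and 2.52%, and CYP24A1, which degrades it, 3.84%, 2.89%, 2.15% and 2.1%. Neither of the last pair came near 2-fold in either clone.

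Cholesterol and bile acid P450 genes were largely low. CYP51A1, which demethylates lanosterol in cholesterol synthesis, had signals of 869%, 553%, 470% and 421%, or log2 fold changes of -0.65 and -0.16 for the SkBr3 and BT474 clones. CYP39A1, an oxysterol hydroxylase, read 1.59%, 0.672%, 0.545% and 1.12%, and its fall in SkBr3/Lap (log2 fold change -1.24) rested on signals near the floor. The other members, CYP7A1, CYP7B1, CYP8B1, CYP27A1 and CYP46A1, were between 0.172% and 2.68% on every array.

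The CYP1 family split. CYP1B1, which hydroxylates estradiol and is likewise induced through AHR, had signals of 375%, 58.2%, 137% and 163%. It was 6.44-fold lower in SkBr3/Lap, where CYP1A1 was higher, and level in BT474/Lap at 1.19-fold. CYP1A2, known for caffeine oxidation, read 235%, 175%, 200% and 500% with its brightest probe, or log2 fold changes of -0.42 and 1.32 for the SkBr3 and BT474 clones. Its other probe, dim in SkBr3 and SkBr3/Lap, gave 3.68 for BT474. AHR itself read 200%, 188%, 288% and 232%, and TIPARP, another target of AHR, was 2.92-fold lower and 1.41-fold higher in the SkBr3 and BT474 clones.

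Of the drug-metabolizing CYP2 and CYP3 genes, 3 of 11 usable members were at least 2-fold higher and 1 was lower in SkBr3/Lap, and 3 of 13 were higher and 1 lower in BT474/Lap. The shares of all genes were 12.7% and 13.5% in SkBr3/Lap and 8.56% and 5.89% in BT474/Lap. CYP2S1, which is expressed in epithelia, had signals of 0.584%, 39.2%, 42.3% and 44.5% and was at least 27.3-fold higher in SkBr3/Lap, reaching the percentage seen in both BT474 cultures. CYP2B6, which oxidizes cyclophosphamide, had 6.9%, 8.74%, 429% and 214%, 2.0-fold lower in BT474/Lap, at the threshold. CYP2E1, which oxidizes ethanol, had 1.8%, 0.837%, 7.41% and 17.6%, lower in SkBr3/Lap (log2 fold change -1.11) and higher in BT474/Lap (1.25). Other probes were under 2-fold in BT474/Lap for both genes, at -0.92 for CYP2B6 and at a limit of 0.61 for CYP2E1.

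CYP2A6, the main nicotine-oxidizing enzyme, and CYP2A7 were higher in BT474/Lap by log2 fold changes of 1.14 and 1.22. CYP2D6, which handles many drugs, was higher in SkBr3/Lap by 1.37, but its probes differed by 1.52 on the log2 scale in that comparison. Over 3778 genes with several probes measured on all arrays, the median range among probes was 0.29 in SkBr3 and 0.28 in BT474, and over the 11 such members it was 0.07 and 0.13. CYP2F1 was at least 2.22-fold higher in SkBr3/Lap, where it read 3.19%. Its other probe was below background in SkBr3 at 1.21% and read 0.942% in SkBr3/Lap, which gave no usable limit.

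Of the fatty acid P450 genes, 5 of 10 usable members fell past 2-fold in SkBr3/Lap and none rose, where 13.5% and 12.7% of all genes did. In BT474/Lap, 7 of 13 rose past 2-fold and none fell, where 8.56% and 5.89% of all did. CYP2J2, which turns arachidonic acid into epoxides, had signals of 386%, 5.16%, 285% and 338%, a fall of 74.8-fold in SkBr3/Lap against a log2 fold change of 0.25 in BT474/Lap. This was the lowest log2 fold change among the members measured on both SkBr3 arrays. The difference between the clones was not tested, since each has 1 array.

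**Figure D3:**
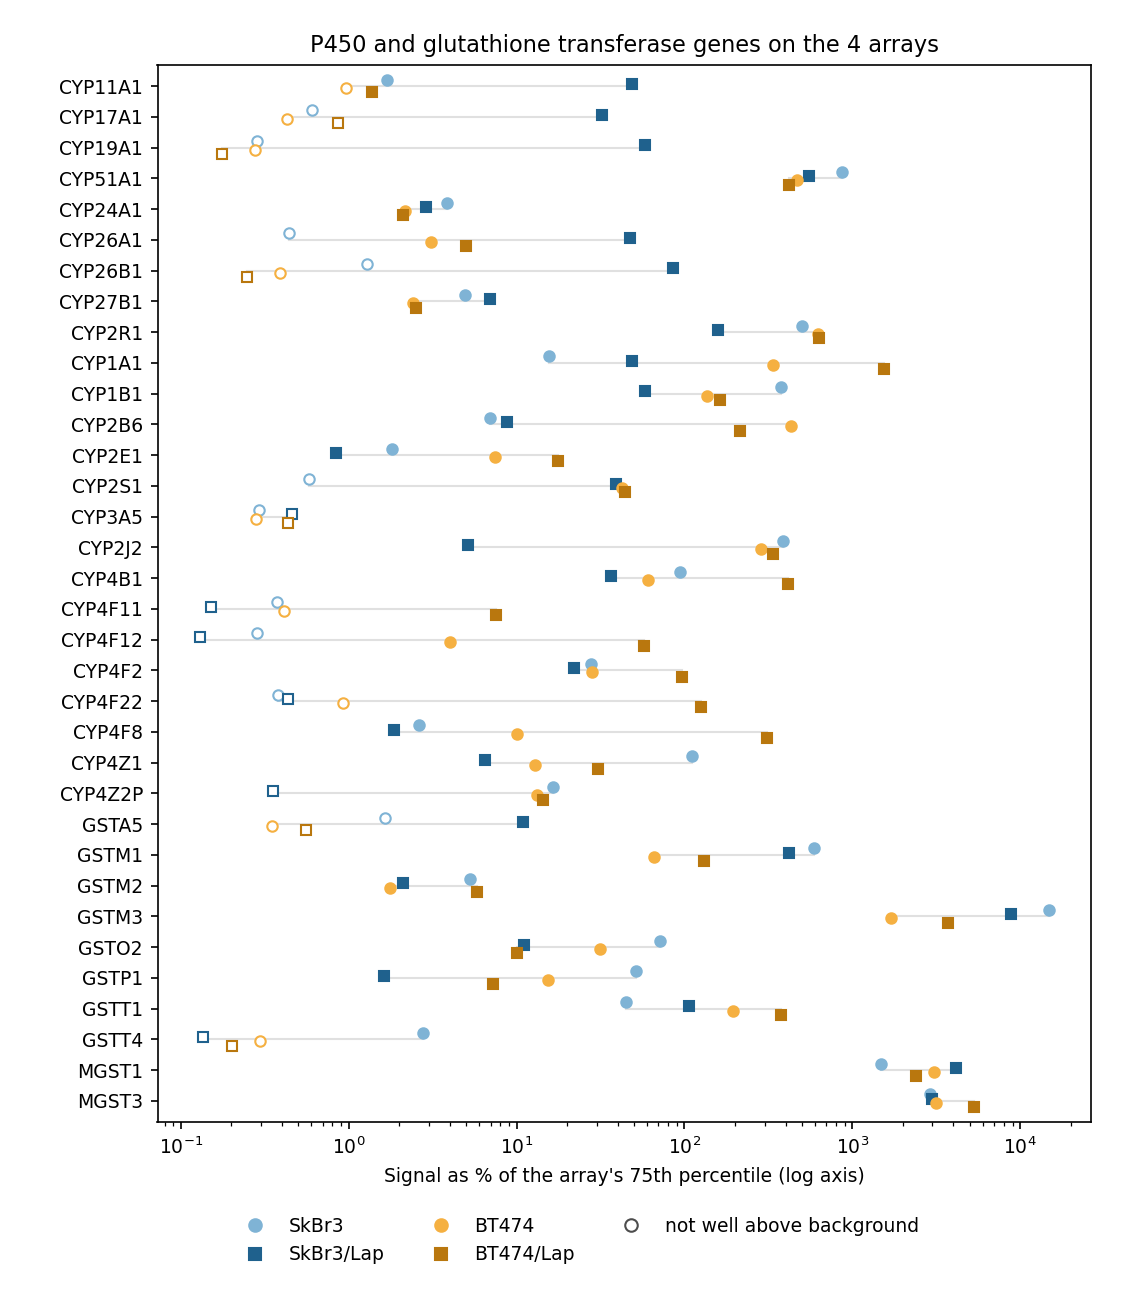
Signals of 34 P450 and glutathione transferase genes on the 4 arrays, as a percentage of the array's 75th percentile on a log axis, with 1 symbol per array and open symbols where the probe was not well above background. Each line is read across the arrays and not against other lines, since probes differ in brightness; CYP11A1, CYP17A1, CYP19A1, CYP26A1 and CYP26B1 stand out on the SkBr3/Lap array, and the CYP4F genes on the BT474/Lap array.

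The 5 CYP4F genes with a probe are neighbors in the RefSeq order. By their brightest probes all 5 rose past 2-fold in BT474/Lap, where 8.56% of all genes did. CYP4F22 and CYP4F11 are limits, usable in BT474 only through the BT474/Lap array where they were high. CYP4F22, which makes the long omega-hydroxy fatty acids of the skin barrier, had signals of 0.381%, 0.436%, 0.929% and 126%, at least 91.7-fold higher in BT474/Lap. CYP4F8, a prostaglandin hydroxylase, had 2.62%, 1.87%, 10.1% and 310%, 30.7-fold higher. CYP4F12, which hydroxylates arachidonic acid, had 0.286%, 0.13%, 4.02% and 57.4%, 14.3-fold higher. In each of these genes the BT474/Lap array was far above the other 3.

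CYP4F2, which hydroxylates vitamin K and leukotriene B, had 27.7%, 22.1%, 28.2% and 96.5%, 3.42-fold higher in BT474/Lap. Its other probes gave log2 fold changes of 2.44 and, as a limit, 4.48 against 1.78 for this one. CYP4F11, which acts on long-chain fatty acids, had 0.372%, 0.152%, 0.412% and 7.58%, at least 5.5-fold higher, a limit that came to a log2 fold change of 0.99 after normexp correction. Its other probe gave a limit of 0.16. In SkBr3/Lap, CYP4F8 and CYP4F2 had log2 fold changes of -0.49 and -0.33 and the other 3 were below background on both arrays. Of the 22 usable genes within or up to 10 places beside the CYP4F group, 3 were at least 2-fold higher and 3 lower in BT474/Lap. CYP4F members are close in sequence, so their probes may share signal, and the probe sequences were not used here.

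CYP4F8 and CYP4F11 each held 1 TGACNNNGC match at nearly the same distance from the start, from base -158 to base -150 and from base -156 to base -148. Both are shown for comparison, from GRCh38.p14, with the match in capitals.
CYP4F8 (chr19:15614968-15615217, plus strand): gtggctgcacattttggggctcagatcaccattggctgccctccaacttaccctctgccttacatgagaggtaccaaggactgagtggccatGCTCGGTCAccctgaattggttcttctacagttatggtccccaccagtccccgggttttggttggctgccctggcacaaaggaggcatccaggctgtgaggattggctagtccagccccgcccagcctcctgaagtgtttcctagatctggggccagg
CYP4F11 (chr19:15934868-15935117, minus strand): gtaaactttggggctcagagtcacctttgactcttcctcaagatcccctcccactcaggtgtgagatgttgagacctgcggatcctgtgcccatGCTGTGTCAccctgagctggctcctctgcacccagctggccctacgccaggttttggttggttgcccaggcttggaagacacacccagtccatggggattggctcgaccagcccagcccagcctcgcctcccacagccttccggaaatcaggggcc

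CYP4F22 held 1 match of each kind, the TGACNNNGC letters from base -8 to base 1, and CYP4F2 held none. CYP4F12 had no window among those matched. These matches stand beside the 13.6% of all windows with TGACNNNGC, and the genes are related copies, so they are not independent counts.

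A second run of neighbors was CYP4B1, CYP4Z2P, CYP4A11, CYP4X1 and CYP4Z1. Of its 5 genes, 4 fell past 2-fold in SkBr3/Lap, where 13.5% of all genes did, and of 16 usable genes beside it, 1 did. CYP4Z1, a fatty acid hydroxylase known for expression in breast, had signals of 111%, 6.51%, 12.8% and 30.4%, 17.1-fold lower for the SkBr3 clone and 2.36-fold higher for the BT474 clone. Its transcribed copy CYP4Z2P had 16.5%, 0.352%, 13.3% and 14.4%, at least 25.7-fold lower in SkBr3/Lap. CYP4B1, which activates pulmonary toxins, had 94.2%, 36.7%, 60.8% and 414%, 2.57-fold lower and 6.8-fold higher in the same order. CYP4X1 fell by 1.05 on the log2 scale in SkBr3/Lap, and CYP4A11, CYP4V2 and CYP2U1 stayed within 2-fold in both clones by their brightest probes. Another CYP4V2 probe was past 2-fold in BT474/Lap, at a log2 fold change of -1.21. Not every run of neighbors moved together. From CYP2A6 to CYP2S1, 2 of 5 usable genes were higher in SkBr3/Lap, where 12.7% of all genes were. In BT474/Lap, 2 of 6 were higher and 1 was lower, beside 8.56% and 5.89% of all. The runs from CYP2C18 to CYP2C8 and from CYP3A5 to CYP3A43 had 1 or 2 usable genes per clone, and none passed 2-fold.

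**Figure D4:**
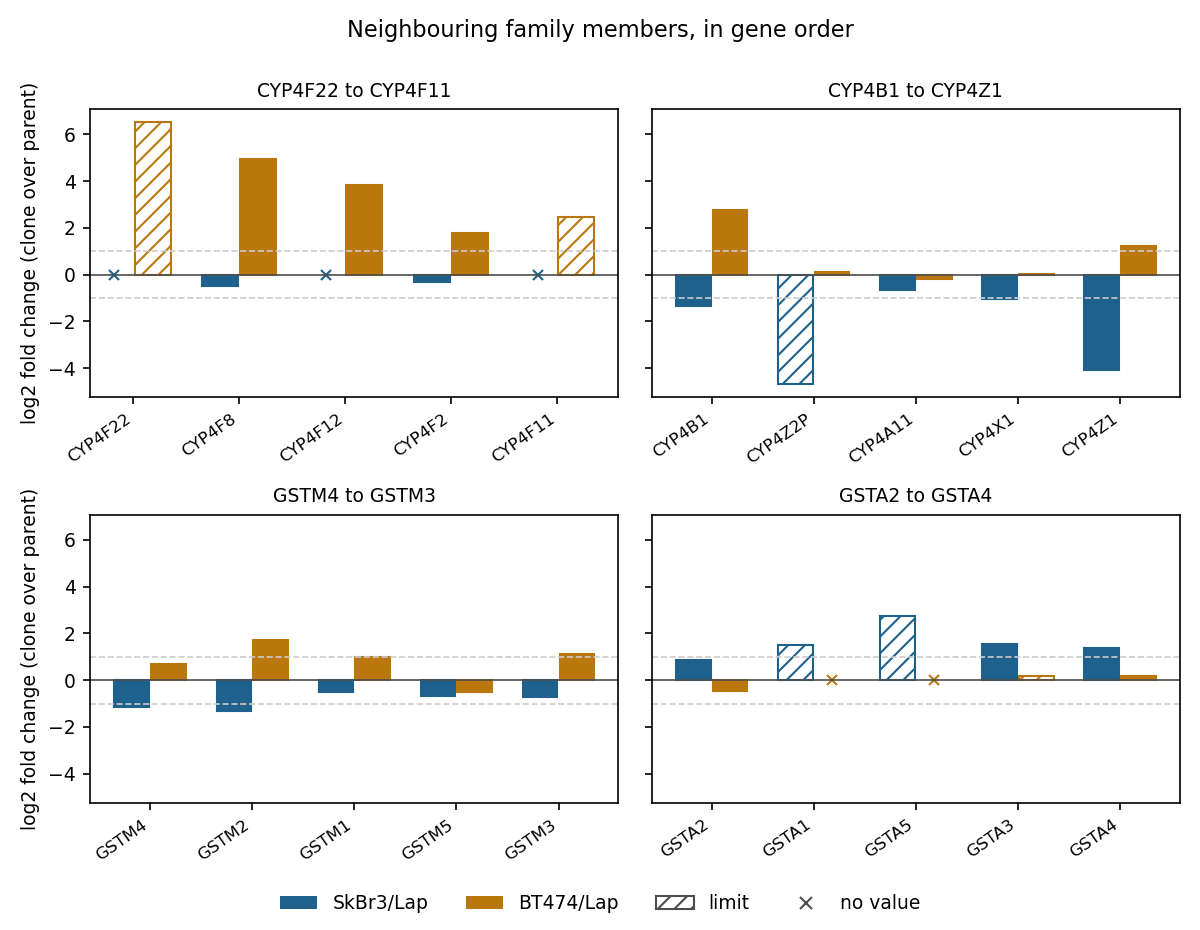
log2 fold changes of neighboring genes in SkBr3/Lap over SkBr3 (blue) and BT474/Lap over BT474 (brown), in RefSeq gene order, from 1 array per group. Not every run of neighbors is shown. Hatched bars are limits, crosses mark genes below background on both arrays or with no usable limit, and dashed lines mark 2-fold; the 5 CYP4F genes rise in BT474/Lap, and 4 of the genes from CYP4B1 to CYP4Z1 fall in SkBr3/Lap.

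Of the alpha-class glutathione transferases, which are neighbors too, 4 of 5 were at least 2-fold higher in SkBr3/Lap, where 12.7% of all genes were. None of 3 usable members passed 2-fold in BT474/Lap. GSTA1 and GSTA5 were usable in SkBr3 only through the SkBr3/Lap array, and 3 of the class were measured on both arrays. Of 14 usable genes beside them, 2 were higher and 4 lower in SkBr3/Lap. GSTA4, which conjugates aldehydes from lipid peroxidation, had signals of 80.2%, 207%, 154% and 172%, 2.59-fold higher in SkBr3/Lap. GSTA3, known as a steroid isomerase, had 3.99%, 11.5%, 0.965% and 1.55%, 2.89-fold higher. GSTA5 had 1.64%, 10.9%, 0.351% and 0.554%, at least 6.63-fold higher, and GSTA1 was at least 2.8-fold higher. GSTA2 was under 2-fold with its brightest probe, at a log2 fold change of 0.88, and past it with the other, at 3.28. Apart from GSTA4 these signals were low, and probes of closely related alpha-class genes may share signal.

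Of the mu class, 2 of 5 usable members fell past 2-fold in SkBr3/Lap, where 13.5% of all genes did, and 3 of 6 rose past 2-fold in BT474/Lap, where 8.56% of all did. GSTM2 was the member past 2-fold in both clones. GSTM3 had signals of 14800%, 8860%, 1710% and 3700%, or log2 fold changes of -0.74 and 1.11 for the SkBr3 and BT474 clones. Another GSTM3 probe was past 2-fold in SkBr3/Lap, at -1.38. GSTM1 had 588%, 418%, 65.6% and 131%, with -0.49 and 1.00, the latter at the threshold. GSTM2 had 5.27%, 2.11%, 1.77% and 5.79%, with -1.32 and 1.71. For all 3, the SkBr3/Lap value was the lower of its pair and the BT474/Lap value the higher, and GSTM4 had the same signs, at -1.13 and 0.68. GSTM5 was below 0 in both clones, at -0.68 and -0.49. With median scaling, GSTM1 and GSTM3 dropped under 2-fold in BT474/Lap, at 0.79 and 0.90.

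In the remaining soluble classes, GSTT1, a theta-class enzyme that acts on halogenated solvents, had signals of 44.6%, 107%, 194% and 376%. The rise was 2.39-fold for the SkBr3 clone and 1.94-fold for the BT474 clone, the latter just under the threshold. GSTT4 had 2.76%, 0.136%, 0.295% and 0.201%, at least 4.31-fold lower in SkBr3/Lap. GSTK1, found in mitochondria and peroxisomes, was 2.17-fold higher in BT474/Lap, while GSTO1 and GSTZ1, the latter an enzyme of tyrosine breakdown, stayed within 2-fold in both clones.

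Among the microsomal enzymes, MGST1, a membrane peroxidase, had signals of 1490%, 4150%, 3060% and 2390%, 2.79-fold higher in SkBr3/Lap and with a log2 fold change of -0.36 in BT474/Lap. MGST3 had 2890%, 2980%, 3130% and 5280%, with 0.04 and 0.76. MGST2, which like MGST3 can make leukotriene C, had log2 fold changes of 0.01 and 0.16.

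The genes that work with these enzymes were counted by the same rule. POR, the main P450 reductase, had no probe matched by name. Of 9 P450 electron and heme partners with a probe, 1 was higher and 1 lower in SkBr3/Lap, and 1 was higher in BT474/Lap, where 12.7%, 13.5% and 8.56% of all genes were. HMOX1, which breaks down heme, had signals of 260%, 550%, 38.6% and 132%, 2.11-fold and 3.43-fold higher in the clones. FDXR, which passes electrons to the mitochondrial P450s, was 2.4-fold lower in SkBr3/Lap. The electron partners CYB5A and CYB5B stayed within 2-fold.

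Of the regulators, 26 of 27 had a probe. In SkBr3/Lap 1 of 21 usable genes was higher and 3 were lower, and in BT474/Lap 3 of 23 were higher and 1 was lower, against 12.7%, 13.5%, 8.56% and 5.89% of all genes. PPARA, the fatty acid receptor, was higher in both clones, by 3.21-fold in SkBr3 and at least 12.0-fold in BT474. RXRA, the shared partner of nuclear receptors, was 2.11-fold higher in BT474/Lap, and RARB was at least 5.09-fold lower there. NFE2L2, the activator that binds antioxidant response elements, had log2 fold changes of 0.05 and 0.15, and its inhibitor KEAP1 -0.02 and 0.05.

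Genes of glutathione synthesis and use had 4 of 28 higher and 5 lower in SkBr3/Lap, and 2 of 27 higher and 5 lower in BT474/Lap. Over all genes, 12.7% and 13.5% were higher and lower in SkBr3/Lap, and 8.56% and 5.89% in BT474/Lap. GLRX, a glutaredoxin, was higher in both clones, by 6.13-fold and 2.27-fold, and OPLAH, which recycles oxoproline into glutamate, was lower in both, by 7.67-fold and 5.85-fold. GPX2, a glutathione peroxidase, was lower in SkBr3/Lap by 12.6-fold but higher in BT474/Lap by 2.21-fold. In SkBr3/Lap, the exporters ABCC2 and ABCC4 and the peroxidase GPX3 were also higher, by 9.21-fold, at least 3.78-fold and 2.05-fold, and GCLC, ANPEP and GLO1 lower, by 2.0-fold, at least 3.77-fold and 2.42-fold. In BT474/Lap, the cystine carrier SLC7A11 was 11.3-fold lower, the glutathione-degrading CHAC1 5.13-fold, the exporter ABCC3 4.35-fold and GPX8 2.05-fold.

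Of the other conjugating and oxidizing enzymes, 9 of 31 were higher and 8 lower in SkBr3/Lap, and 11 of 29 were higher and 7 lower in BT474/Lap, beside shares of 12.7%, 13.5%, 8.56% and 5.89% of all genes. UGT1A6, which glucuronidates phenols, was higher in both, by 13.3-fold and 3.55-fold, as were the aldo-keto reductases AKR1B1 (8.68-fold and 2.09-fold), AKR1B10 (5.0-fold and 4.81-fold) and AKR1C3 (14.4-fold and at least 22.0-fold) and the monoamine oxidase MAOA (2.15-fold and 11.0-fold). The epoxide hydrolases EPHX1 (5.13-fold and 2.0-fold) and EPHX2 (4.58-fold and at least 18.1-fold), UGT2B11 and the monooxygenase FMO5 (22.6-fold and 3.11-fold) were lower in both. NAT1 and SULT2B1 fell in SkBr3/Lap and rose in BT474/Lap, NAT1 by 2.51-fold and 3.43-fold and SULT2B1 by 3.68-fold and 2.85-fold, and AOX1 moved the opposite way. UGT8 and NNMT were 53.7-fold and 30.2-fold higher in SkBr3/Lap, with AKR1C1 2.55-fold higher and SULT1A1 and UGT2B7 lower. In BT474/Lap, FMO1, FMO4, NAT2 and CES1 were higher, by 5.79-fold, 4.08-fold, 3.85-fold and at least 2.04-fold, and UGT2B15 was lower.

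Since many of these enzymes are characteristic of liver, 7 hepatocyte markers were examined beside them. On the 4 arrays, 2, 3, 4 and 5 were above background, with summed signals of 14.3%, 7.54%, 129% and 119%. In BT474/Lap, TTR, APOA1 and TF were higher, by 13.2-fold, at least 6.0-fold and 2.17-fold, and SERPINA1 was 2.09-fold lower. SERPINA1 read 9.51%, 2.47%, 112% and 53.8%, the largest single signal in both BT474 sums, and was 3.85-fold lower in SkBr3/Lap. APOB and FGB were below background on every array, and ALB read between 0.322% and 9.61%. Of 5 leukocyte markers, 4, 4, 3 and 4 were above background, with sums of 80.9%, 55.0%, 15.7% and 13.1%, and the defining marker PTPRC was below background on every array. The part of either cell type in the changes of the P450 genes was not tested.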

How the data were processed

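Total RNA from 4 cultures was hybridized to Agilent 4 × 44 K arrays. The authors deposited, spot by spot, a processed intensity (Feature Extraction 10.1.1.1, with background subtracted and spatial trends removed), median pixel intensities, and flags for outliers and for signal above background. The authors also deposited a table of log2 values, with column medians of 0.126, -0.199, 0.106 and -0.046, whose differences between arrays matched those of the processed intensities with median deviations of 2.94e-07 (SkBr3) and 2.87e-07 (BT474) and a largest of 0.617. Its centering is not stated.

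The 43376 spots of an array were averaged on the log2 scale into 41000 probes, and the 75th percentile over probes was taken off. A probe counted as well above background if 50% or more of its spots carried that flag. RefSeq accessions named 23680 probes, and the brightest probe stood for a gene. limma 3.58.1 in R 4.3.3 and Python 3.11.15 were used, tested on simulated data. The number of arrays limits the precision. Named were members past 2-fold in both clones, the 8 largest rises and falls of each clone, and a list chosen for known roles, 34 genes in all. Others are given by class. For partner lists, genes past 2-fold in at least 1 clone were named, except 1 that is not reported here. The members and lists were chosen with earlier results of these data known. Alternatives were other scalings, normexp (offset 50, on median pixel intensities), the deposited table, filters, probe averages and a 3-fold threshold. Promoters came from RefSeq (GRCh38.p14). The array design predates that assembly, so no probe coordinates are given.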

Additional observations from a re-analysis of the deposited data

Results flagged for a closer look

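In 4 genes the SkBr3 clone moved past 2-fold one way and the BT474 clone past 2-fold the other way. The differences were not tested, since each clone was measured on 1 array. CYP4Z1 fell by 4.10 on the log2 scale in SkBr3/Lap and was higher by 1.24 in BT474/Lap, 5.34 apart. CYP4B1 changed by -1.36 and 2.77, 4.13 apart. GSTM2 changed by -1.32 and 1.71, 3.03 apart. CYP2E1 changed by -1.11 and 1.25, 2.36 apart. The GSTM2 and CYP2E1 signals were low, and after normexp correction both genes were within 2-fold in both clones, at -0.55 and 0.63 for GSTM2 and at -0.14 and 0.78 for CYP2E1. CYP4Z1 was then at 0.92 in BT474/Lap.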

How the results depend on the processing

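No paired analysis was possible because the groups shared replicate number 1 alone, beyond the block for cell line in limma, and with 1 array per group none was left out. A 3-fold threshold gave 8 of 60 members higher and 8 lower in SkBr3/Lap, and 8 of 58 higher and 1 lower in BT474/Lap. Of 52 members, 1 was then lower in both clones and 0 were opposite. Scaling by the 75th percentile of probes above background on all arrays gave 1 of 58 lower in BT474/Lap, against 4.74% of all genes. It gave 2 of 52 higher in both clones (against 2.6% of all) and 1 of 52 lower in both (against 1.04%). Quantile normalization gave 2 of 52 higher in both, against 2.26% of all genes. After normexp, 8 of 60 were lower in SkBr3/Lap, against 8.73% of all genes, and 1 of 58 in BT474/Lap, against 3.88%. In both clones, 2 of 52 were higher (against 1.33% of all) and 1 was lower (against 0.779%). In opposite directions there was 1 of 52, against 1.34% of all. Requiring signal above background on both arrays gave 7 higher in SkBr3/Lap, of the 45 members so measured. Of all genes, 12022 were so measured, and 411 of the 1720 higher calls made without that rule were limits. A minimum signal of 100 without limits gave 2 higher in both and a SkBr3 median of -0.17. For the 3-fold threshold, the rule of both arrays and the minimum signal, shares of all genes are not given here. Those counts describe the members alone. The median log2 fold change of members measured on both arrays was -0.49 in SkBr3 and 0.17 in BT474, against -0.10 for all genes in both. With median scaling these were -0.33 and -0.04, against 0.05 and -0.31, so the BT474 median turned below 0 while staying above that of all genes. limma gave 0 adjusted calls under every setting run, and between 1 and 8 member probes at an unadjusted p below 0.05, the 8 with slide as the block. Of 456 values of named genes under the alternatives, 431 stayed on their side of 2-fold, 20 dropped below it, 5 rose past it, and 0 of those past 2-fold turned direction. The cause was not tested. Signals near the floor limit the low genes most, and probes of closely related genes within GSTA, GSTM, CYP2A, CYP3A, CYP4F and CYP4Z may share signal.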
